A study of Homo sapiens with 12 samples.

Results

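QKI-binding clusters on 3′ splice sites were examined in HEK293T cells, the established human embryonic kidney line that the labels also write as HEK293xT. A cluster is a stretch of transcript where crosslinked reads piled up in one immunoprecipitation library. A cluster was taken as a 3′ splice site cluster when, off the mitochondrial chromosome, the annotation deposited for the endogenous libraries gave it more bases of the class 3′ splice site (coding or noncoding transcripts) than of any other class. This held for 3902 clusters of endogenous library 1 and 2874 of endogenous library 2, which is 6776 of 615972 endogenous clusters. Clusters of the tagged libraries carry no annotation and entered by overlap on the same strand, with 362 and 431 clusters in the mutant libraries and 1331 and 1260 in the wild type libraries. Overlapping or touching endogenous members were merged into 5397 loci, which were made without the tagged libraries.

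The data are enhanced crosslinking and immunoprecipitation (eCLIP) libraries, in which RNA crosslinked to a protein by ultraviolet light is pulled down and sequenced beside a size-matched input. The mutant group expressed myc-QKI-5 carrying K120A and R124A (amino acid residues, numbered as in the labels), and the wild type group expressed myc-QKI-5. Both came from HEK293T cells transiently transfected with 10 µg of plasmid on a 10 cm plate and crosslinked 72 hours later, and both were pulled down with anti-MYC antibody. The endogenous group came from cells with no modification, pulled down with anti-QKI antibody. Antibody, transfection and tag all differ between it and the tagged groups. The labels name no deletion of the cells' own QKI in the transfected groups. Each of the 3 groups had 2 immunoprecipitation libraries and as many inputs, and all cells were crosslinked at 254 nm with 400 mJ/cm2. The labels do not say if a group's libraries are separate cultures, and the p-values below therefore cover no more than library-to-library spread, possibly a technical one. The design note of the series speaks of human embryonic stem cells in cardiomyocyte differentiation. The files hold binding and not expression and do not settle this. Clusters lay in 2 of 10 stem cell marker genes in each endogenous library, against 3 and 4 of 12 cardiomyocyte genes and 3 and 4 of 8 neuronal genes. Protein amounts in the pulldowns were not analysed here.

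The 3′ splice site is the end of an intron, where the splicing machinery reads a branch point, a pyrimidine-rich tract and the final AG before the next exon. QKI (Quaking) is a KH-domain protein of the STAR family whose preferred RNA element resembles the branch point consensus, and it regulates alternative splicing in glia, muscle and many cell lines. QKI-5 is its nuclear isoform. The title of the series is about weak 5′ splice sites and the U6 tri-snRNP, so the opposite end of the intron is the one described here.

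The deposited class was a fixed window. Where an intron-side edge and an exon-side edge of the class lay within 150 bases of each other, they were exactly 100 bases apart in 215 of 215 pairs. Of 238 endogenous clusters that ran from the proximal intron across the class into the coding exon, 236 held 100 bases of it. Where the intron–exon junction lies within this window is not stated in the labels or files. The deposited files also give each cluster 1 leading label, which was a 3′ splice site class for 52.6% of members in endogenous library 1 and 53.8% in library 2. Members with at most 60% of their bases in the class were enriched in 11.7% and 12.2% of cases, and clusters just outside the rule, with at least 40%, in 12.9% and 13.2% (endogenous libraries 1 and 2).

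The first question was how often the substituted protein, the wild type protein and endogenous QKI were enriched at 3′ splice sites. A cluster counted as enriched when its log2 fold of immunoprecipitation over input and its −log10 p, both the authors' values, each reached 3. In the mutant libraries 0 of 362 and 4 of 431 member clusters were enriched, shares of 0% (95% exact binomial interval 0 to 1.01) and 0.928% (0.253 to 2.36). In the wild type libraries 120 of 1331 and 128 of 1260 were enriched, 9.02% (7.53 to 10.7) and 10.2% (8.55 to 11.96). In the endogenous libraries 280 of 3902 and 208 of 2874 were enriched, 7.18% (6.39 to 8.03) and 7.24% (6.32 to 8.25). Over all clusters of a library the enriched share was 0.0375% and 0.304% in the mutant, 2.05% and 1.88% in the wild type, and 4.21% and 5.38% in the endogenous libraries. Tagged members overlap an endogenous cluster by definition, whereas these tagged shares cover all clusters, with or without such an overlap. The 2 are therefore not like for like in the tagged libraries. The binomial intervals cover counting error only. The myc files list only clusters with a log2 fold above 0 whereas 31.7% and 12.2% of endogenous members were at or below 0, so shares of clusters are not comparable between the myc and endogenous files.

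The 3′ splice site clusters of each library were then set against its remaining annotated clusters. In the tagged libraries these were the other clusters that overlapped an endogenous cluster. The 3′ splice site clusters were enriched more often in both wild type libraries (9.02% and 10.2%, against 4.93% and 4.88%). They were also enriched more often in both endogenous libraries (7.18% and 7.24%, against 4.18% and 5.35%). In the mutant the shares were 0% and 0.928% against 0.124% and 0.448%, so the first library lay below and the second above. The difference, members minus others, averaged 2.43 percentage points over the 6 libraries, with an exact two-sided sign-flip permutation p of 0.0625, where the smallest possible is 0.03125. It was 0.18 ± 0.43 in the mutant, 4.69 ± 0.84 in the wild type and 2.44 ± 0.79 in the endogenous libraries (SD, n = 2 each). The sign-flip test pooled these 3 unlike groups as 6 replicates, so its p does not measure the spread within any of them. In mutant library 2 the difference depended on the fold threshold. At a log2 fold of at least 2, with the same −log10 p, it was −0.11 and 4.06 points in the mutant libraries. It was then 5.66 and 6.26 in the wild type and 3.79 and 2.71 in the endogenous libraries. Sizes are not ranked between tagged and endogenous libraries, whose shares of clusters are not comparable. Median widths of members and others were close, 66 against 69 and 66 against 72 bases in the wild type libraries and 58 against 56 and 57 against 55 bases in the endogenous libraries. Members whose leading deposited label was also a 3′ splice site class were enriched less often than members as a whole. They were enriched at 114 of 2054 in endogenous library 1 and at 84 of 1546 in library 2. In library 2 this share lay close to the 5.35% of the other clusters.

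Clusters on coding transcripts made up most members and most enriched members. In the endogenous libraries 7.57% of 3553 and 7.54% of 2652 clusters on 3′ splice sites of coding transcripts were enriched, and 3.15% of 349 and 3.60% of 222 on those of noncoding transcripts.

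Counted by locus, the mutant libraries listed a cluster at 357 and 424 of the 5397 loci and were enriched at 0 and 4 (0% and 0.0741%). A count of 0 allows a share of up to 0.0556%. The wild type libraries listed a cluster at 1287 and 1226 loci and were enriched at 112 and 121 (2.08% and 2.24%). The endogenous libraries listed 4100 and 3019 and were enriched at 295 and 241 (5.47% and 4.47%). At a locus any overlapping cluster of a library counted, whatever its region class, here and in all locus counts below. The 295 and 241 loci therefore exceed the 280 and 208 enriched member clusters and include calls from clusters of other classes. Over the 479263 loci of all 8 region classes the same shares were 0.00835% and 0.0482% in the mutant, 0.898% and 0.944% in the wild type, and 2.69% and 2.25% in the endogenous libraries. The lower wild type share exceeded the higher mutant share, and the difference of the means, wild type minus mutant, was 2.12 percentage points. The exact two-sided permutation p was 0.333, the smallest that 2 libraries against 2 can give. The difference of the means between tagged wild type and endogenous QKI, wild type minus endogenous, was −2.81 points with the same p of 0.333, and since the loci were built from endogenous clusters the endogenous share is favoured by construction.

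Folds were read next where a cluster was listed, each library over its own listed loci. The loci compared therefore differ between libraries. The median log2 fold over listed loci was 0.70 and 1.21 in the mutant libraries and 1.63 and 1.76 in the wild type libraries, and both wild type medians exceeded both mutant medians. The difference of the means was 0.74, wild type minus mutant (exact two-sided permutation p = 0.333). The mutant files differed from each other by more than the wild type files did, and with mutant library 1 left out the difference was 0.49, with library 2 left out 1.00. Among the other annotated clusters the median log2 fold was 0.65 and 0.88 in the mutant and 1.22 and 1.14 in the wild type libraries. That is the same direction as at 3′ splice sites. Over the 42 3′ splice site regions listed in all 4 tagged libraries, described below, the median difference was −0.38.

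**Figure D1:**
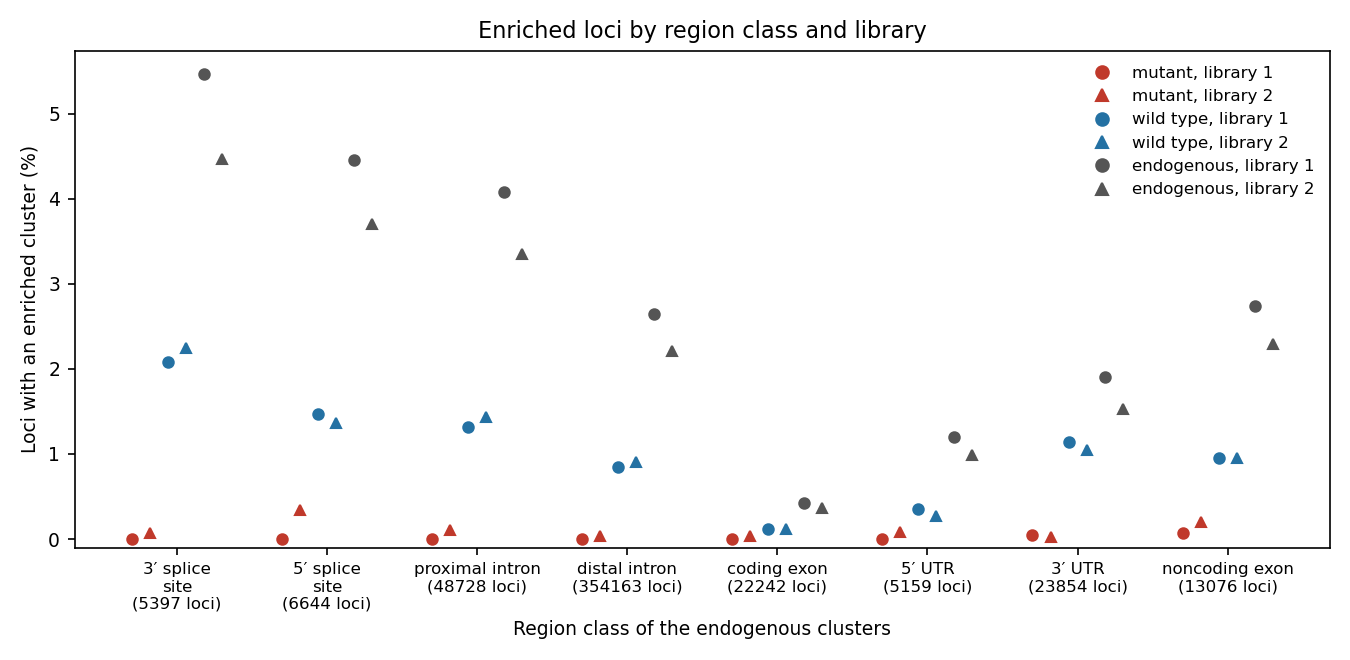
Share of loci (%) with an overlapping enriched cluster of any class in each library, by the region class of the endogenous clusters from which the loci were built; each point is 1 library (mutant red, wild type blue, endogenous grey). The 3′ splice site class has the highest point of all classes in each wild type and each endogenous library (2.08%, 2.24%, 5.47% and 4.47%), and mutant points lie near 0 in every class.

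Among the 8 region classes, 3′ splice sites had the largest share of enriched loci in each wild type and each endogenous library. The nearest classes were 5′ splice sites, with 1.48% and 1.37% in the wild type and 4.46% and 3.70% in the endogenous libraries, and proximal introns, with 1.32% and 1.44% in the wild type and 4.08% and 3.35% in the endogenous libraries. Coding exons had 0.117% and 0.112% in the wild type and 0.418% and 0.360% in the endogenous libraries. The mutant did not follow this order: mutant library 2 was enriched at 0.346% of 5′ splice site loci and 0.107% of proximal intron loci, and at 0.0741% of 3′ splice site loci. Over the 6 libraries the share at 3′ splice sites minus that at 5′ splice sites averaged 0.50 percentage points and that minus proximal introns 0.67, each higher at 3′ splice sites in 4 of 6 libraries. Neither difference passed an exact two-sided sign-flip permutation test (p = 0.125 for each, also 0.125 after Benjamini-Hochberg adjustment over these 2 comparisons). This test pooled the groups in the same way. Counted by cluster instead of locus, endogenous library 2 was nearly level between the classes, at 7.24% for 3′ splice sites and 7.22% for proximal introns.

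The next question was which classes beside the window the clusters reached. The side was read from those other classes and not from position. An intron class counted as the intron side, any other class as the exon side, and both as both sides. Endogenous clusters lying within the window only were enriched in 3.52% of 1562 and 2.42% of 1198 cases, the lowest of 4 kinds. Clusters of the intron side were enriched in 8.23% of 1422 and 9.15% of 984 cases, and those of the exon side in 7.75% of 710 and 7.22% of 554. Clusters of both sides were enriched in 25.5% of 208 and 35.5% of 138 cases. Width moved with this: the median was 40 and 39 bases for clusters within the window and 141 and 138 bases for those that crossed it whole, and the part of width in these shares was not tested. Of the loci enriched in both endogenous libraries described next, 66 were of both sides (20.0% of 330 such loci) and 80 of the intron side (4.08% of 1959). A further 26 were of the exon side (2.56% of 1015) and 11 within the window only (0.526% of 2093). A locus merged from members of the intron side and of the exon side counted as both sides.

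Along 5752 windows that could be placed from endogenous clusters with bases in the class and in the neighbouring proximal intron or coding exon, all clusters of each library were counted in bins of 25 bases. In the mutant libraries at most 1 enriched cluster fell in any bin of the window. In the wild type libraries the enriched share of clusters was 5.75% in both at 200 to 175 bases inside the intron, and 11.8% of 1041 and 12.1% of 1053 clusters in the first 25 bases of the window. It was 6.40% and 5.98% in the first bin past the exon-side edge and 1.96% and 2.37% in the next one. In the endogenous libraries it was 15.2% and 17.3% in the farthest intronic bin and 20.7% and 23.8% at 100 to 75 bases before the window. It was 12.2% and 13.1% in the first 25 bases of the window, where the number of enriched clusters was near its highest (429 and 324), and 7.37% and 7.13% just past the exon-side edge. In these windows the enriched share of endogenous clusters was highest inside the intron, upstream of the window. Wild type myc-QKI-5 lay between 10.7% and 13.3% from 100 bases before the window to its exon-side edge. Windows were placed from endogenous clusters of any fold. The number of endogenous clusters near the edge, and with it their enriched share there, is set in part by that choice. The place of the highest endogenous share is therefore only a description, and 1 cluster can fill several bins.

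**Figure D2:**
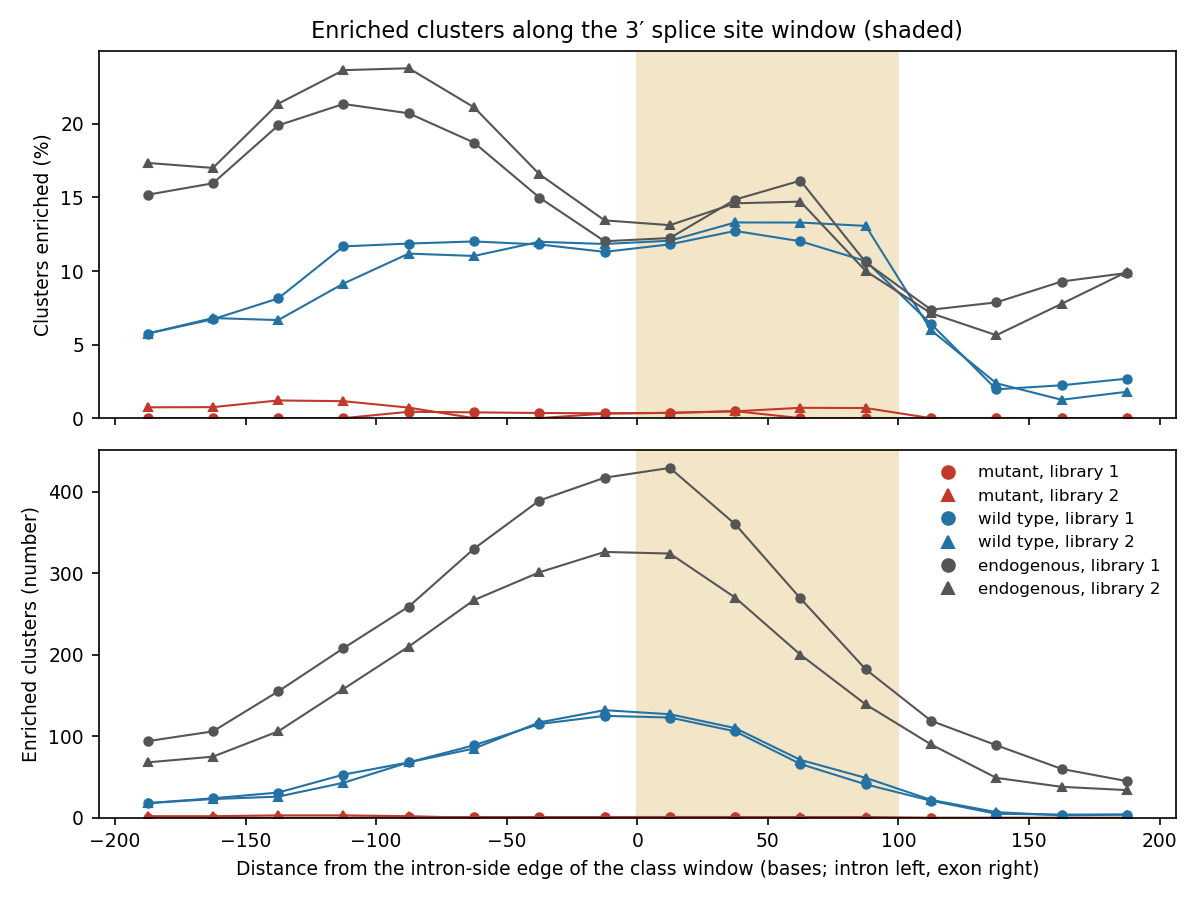
Share of clusters that were enriched (upper, %) and number of enriched clusters (lower) in bins of 25 bases along 5752 windows of the 3′ splice site class, by distance from the intron-side edge in bases, with the intron to the left, the exon to the right and the window shaded. The wild type lines (blue) stay between 10.7% and 13.3% inside the window and reach 1.96% and 2.37% in the second bin past it, the endogenous lines (grey) have their maxima left of the window at 21.4% and 23.8%, and the mutant lines (red) stay near 0.

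At 183 loci both endogenous libraries were enriched, which is 3.39% of the 5397, against 1.69% of the loci of all 8 classes. These calls too could come from overlapping clusters of other classes. A further 170 loci were enriched in exactly 1 endogenous library, and 1722 were listed in both. Of the 183 loci, 179 had 1 gene name and lay in 172 genes. The 183 loci lay on 22 chromosomes, 177 of them on coding transcripts and 6 on noncoding transcripts only, and 94 on the plus strand. They were wider than the class as a whole, with a median of 125 bases against 58 over all 3′ splice site loci. All 183 overlapped a peak of the authors' reproducible endogenous list, which was made from the same libraries that chose the loci. Of the 183, 52 overlapped the wild type list and 0 the mutant list. Across those 3 lists, 0 of 55 mutant peaks, 97 of 3630 wild type peaks (2.67%) and 284 of 12363 endogenous peaks (2.30%) overlapped a 3′ splice site cluster.

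The tagged libraries, which played no part in choosing these loci, differed from each other at them. The mutant libraries listed a cluster at 17 and 8 of the 183 loci, with median log2 folds of 1.19 and 0.72, and were enriched at 0 and 1 (0% and 0.546%). A count of 0 allows a share of up to 1.64%. The wild type libraries listed a cluster at 151 and 140, with medians of 2.997 and 2.74, and were enriched at 64 and 49 (35.0%, interval 28.1 to 42.4, and 26.8%, interval 20.5 to 33.8). Over the 8077 loci of all classes that were enriched in both endogenous libraries, the shares were 0.186% and 0.198% in the mutant and 30.2% and 27.1% in the wild type, so the 3′ splice sites lay near that background. Both wild type libraries were enriched at 42 of the 183 loci (23.0%, against 20.2% over all classes), exactly 1 at 29 and neither at 112. No wild type cluster was listed at 23 of them. The difference of the mean shares at these loci, wild type minus mutant, was 30.6 percentage points, and that of the mean median folds was 1.91 (exact two-sided permutation p = 0.333 for each).

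Folds in the wild type libraries were lower than in the endogenous ones at most of these loci. Of 131 loci listed in both wild type libraries, the mean wild type log2 fold was below the mean endogenous fold at 119, with a median difference of −1.77, wild type minus endogenous. The endogenous fold was used in choosing the loci, which favours it. Across the 131 loci the means of the groups had a Pearson correlation of 0.498 and a Spearman correlation of 0.442, given as a description, since loci are not replicates and all were selected for high endogenous folds. When the 183 loci were divided into 3 groups of 61 by mean endogenous fold, the wild type libraries were enriched at 11 and 8 loci of the lowest group (log2 folds of 3.07 to 4.02), 15 and 14 of the middle group and 38 and 27 of the highest group (4.64 to 7.61). The mutant libraries were enriched at 0 and 0, 0 and 0, and 0 and 1 of the same groups.

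**Figure D3:**
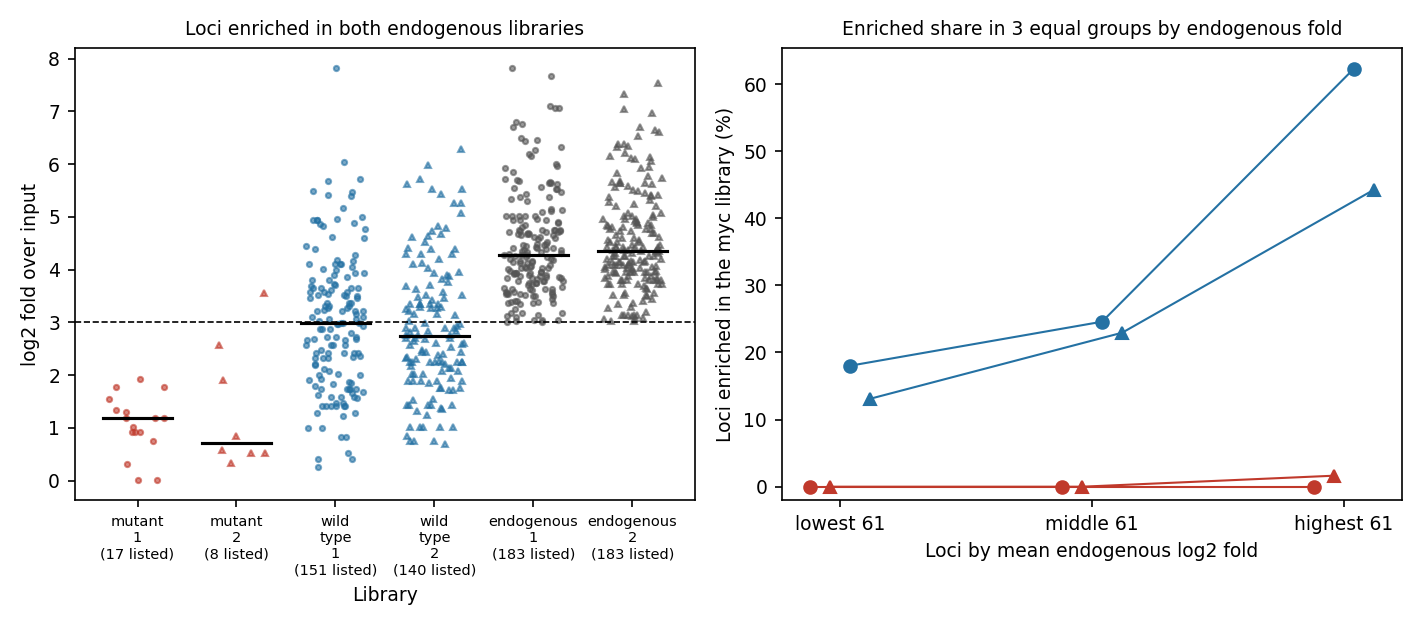
Left, log2 fold over input at the 183 3′ splice site loci enriched in both endogenous libraries, with 1 point per listed locus, a bar at the median and a dashed line at a log2 fold of 3; right, share of loci (%) enriched in each tagged library in 3 groups of 61 loci by mean endogenous log2 fold (mutant red, wild type blue, endogenous grey; circles library 1, triangles library 2). Few mutant points exist (17 and 8), wild type medians lie at 2.997 and 2.74, and the wild type share is highest in the top group (62.3% and 44.3%).

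The locus with the highest mean endogenous fold lay in lnc-USP6-2, a long noncoding RNA (hg19 chromosome 17, 5144255 to 5144336, plus strand). Its log2 fold was 1.78 and 3.56 for the mutant, 7.82 and 6.30 for the wild type and 7.68 and 7.53 for endogenous QKI. It was the only one of the 183 loci with an enriched mutant cluster, in mutant library 2, and the mutant values still lay below all 4 others.

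MATR3, which encodes a nuclear matrix RNA-binding protein that takes part in splicing, came next (chromosome 5, 138651286 to 138651395, plus strand, of the exon side). It reached log2 folds of 5.68 and 4.64 in the wild type and 7.82 and 6.98 in the endogenous libraries, with no cluster in either mutant file. UBA1, the ubiquitin-activating enzyme, had 5.00 and 4.73 in the wild type and 6.27 and 6.16 in the endogenous libraries (chromosome X, 47058135 to 47058201, plus strand), and its endogenous −log10 p was at the cap of 400 in both. In both genes the wild type libraries were enriched and lay below the endogenous ones without overlap.

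RTN4, which encodes the endoplasmic reticulum-shaping protein Nogo, had log2 folds of 6.04 and 3.83 in the wild type and 7.11 and 5.93 in the endogenous libraries, where the groups overlapped. GLB1L3, a galactosidase-like gene, had 0.52 in mutant library 2 with none listed in library 1, 5.39 and 5.98 in the wild type and 6.80 and 6.10 in the endogenous libraries. ORC4, a subunit of the origin recognition complex, had 3.37 and 4.83 in the wild type and 6.47 and 6.53 in the endogenous libraries. ADAT2, a catalytic subunit of the tRNA adenosine deaminase, had 3.58 and 4.19 in the wild type and 6.71 and 5.65 in the endogenous libraries, and neither it nor ORC4 had a mutant cluster.

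PPIP5K2, an inositol pyrophosphate kinase gene, was enriched in 1 wild type library only (log2 folds of 3.54 and 3.35, the second with a −log10 p of 2.39) beside 7.07 and 6.64 in the endogenous libraries. CANT1, a calcium-activated nucleotidase gene, had no listed cluster in any tagged library at this locus, beside 7.07 and 6.35 in the endogenous libraries (chromosome 17, 77001517 to 77001699, minus strand). CANT1 was the only one of the 12 leading loci with no tagged cluster.

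The order of the wild type folds was a different one. After lnc-USP6-2, KIF20B, a mitotic kinesin gene, had the highest mean wild type fold among loci enriched in both wild type libraries. It reached log2 folds of 5.77 and 5.73 in the wild type, above 3.61 and 3.15 in the endogenous libraries, of which the second was not enriched at a −log10 p of 1.99 (chromosome 10, 91528379 to 91528481, plus strand). USP34, a deubiquitinase gene, had 5.68 and 5.17 in the wild type and 1.48 and 4.21 in the endogenous libraries. TAF1, the largest subunit of the general transcription factor TFIID, had 5.72 and 5.08 in the wild type and 3.25 and 4.92 in the endogenous libraries. In these 3 genes, and in HPRT1 below, both wild type values lay above both endogenous values, and no mutant cluster was listed. The wild type fold was used in choosing these loci, which favours it.

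HPRT1, the purine salvage gene, had log2 folds of 4.95 and 5.63 in the wild type and 4.48 and 4.44 in the endogenous libraries (chromosome X, 133607208 to 133607384, plus strand). PAFAH1B1, which encodes the dynein regulator LIS1, had 4.94 and 5.53 in the wild type and 5.10 and 4.06 in the endogenous libraries, where the groups overlapped. Of the 65 loci enriched in both wild type libraries, 42 were enriched in both endogenous libraries, 11 in exactly 1 and 12 in neither. Those 12 had log2 folds of 3.06 to 4.37 and 3.02 to 4.90 in the wild type libraries. In the endogenous libraries the 12 and 10 of them that were listed had 0.43 to 3.34 and 0.56 to 3.15, so that none was at or below 0.

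**Figure D4:**
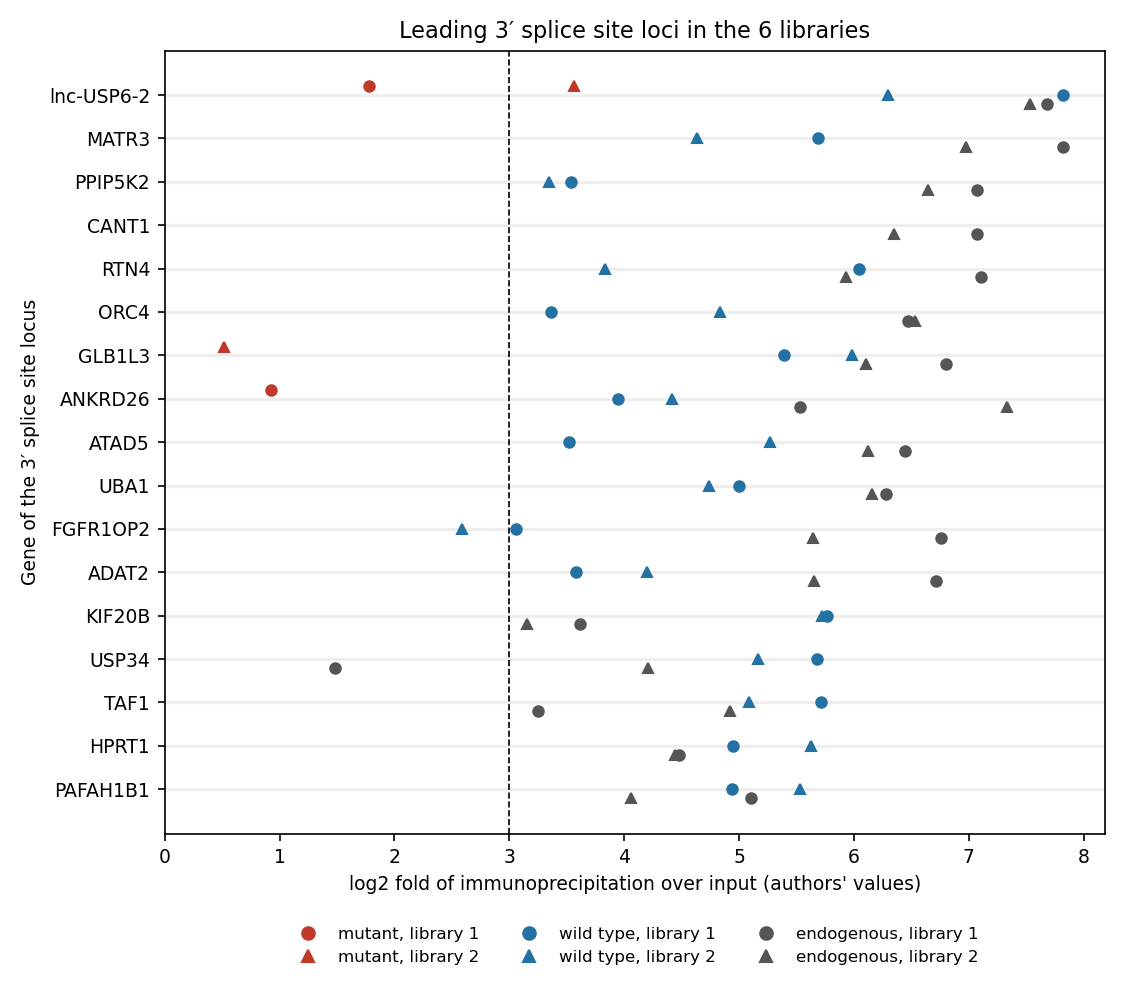
log2 fold of immunoprecipitation over input (horizontal axis, the authors' values) at the 12 3′ splice site loci with the highest mean endogenous fold and 5 more with the highest mean wild type fold, 1 row per gene, 1 point per library with a listed cluster (mutant red, wild type blue, endogenous grey), and a dashed line at a log2 fold of 3. Mutant points exist in 3 of the 17 rows, and KIF20B, USP34, TAF1 and HPRT1, chosen by their wild type fold, have both wild type points to the right of both endogenous points.

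Of the 172 genes, 165 had 1 such locus and 7 had 2. ANKRD26, an ankyrin-repeat gene, had 6 3′ splice site loci in all. At its stronger one (chromosome 10, 27349482 to 27349578, minus strand) the log2 fold was 0.93 in mutant library 1, 3.95 and 4.42 in the wild type and 5.53 and 7.33 in the endogenous libraries. At its second one the fold was 3.66 and 2.83 in the wild type and 3.84 and 3.96 in the endogenous libraries. ATAD5, which takes part in unloading the replication clamp PCNA, had 3.52 and 5.27 in the wild type and 6.45 and 6.12 in the endogenous libraries at one locus. At the other ATAD5 locus no tagged library listed a cluster, beside 4.19 and 3.89 in the endogenous libraries. In both genes the locus with the higher endogenous fold was also the one enriched in both wild type libraries.

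U2SURP encodes a protein associated with the U2 small nuclear ribonucleoprotein, the particle that binds the branch point. It had 4 3′ splice site loci in all. The 2 enriched in both endogenous libraries were at chromosome 3, 142734926 to 142735078 and 142735578 to 142735632 on the plus strand. The first had 2.66 and 2.32 in the wild type and 4.21 and 5.07 in the endogenous libraries, and the second had 3.66 and 3.48 in the wild type, enriched in both, and 4.68 and 4.42 in the endogenous libraries.

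XRN2, a nuclear exoribonuclease gene, and COL25A1, a transmembrane collagen gene, also had 4 3′ splice site loci each, of which 2 were enriched in both endogenous libraries. At one of these 2, XRN2 had 5.41 and 4.10 in the wild type and 3.90 and 5.63 in the endogenous libraries. At the other it had 3.66 and 2.44 beside 4.41 and 3.02. COL25A1 had a wild type cluster in library 1 only, at 2.32 and 1.41 for its 2 such loci, beside 5.69 and 3.96, and 3.78 and 3.73, in the endogenous libraries. None of these loci of U2SURP, XRN2 or COL25A1 had a mutant cluster.

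The 4 gene lists were set beside all named genes, of whose 5258 loci 179 (3.40%) were enriched in both endogenous libraries. The lists were chosen with earlier results of these data known, and their counts are descriptions. Of 28 genes for 3′ splice site and branch point recognition, such as the U2AF and SF3B subunits, 9 had a 3′ splice site locus, and 0 of their 13 loci were enriched in both endogenous libraries. Of 59 splicing regulators 29 had a locus, and 3 of 39 loci (7.69%) were enriched in both. These were MATR3, given above, MBNL2 and HNRNPD. MBNL2, a muscleblind splicing regulator, had a log2 fold of 1.91 in mutant library 2, 4.02 and 3.96 in the wild type and 5.64 and 5.08 in the endogenous libraries (chromosome 13, 98017230 to 98017365, plus strand). HNRNPD, the RNA-binding protein AUF1, had 1.55 in mutant library 1, 1.57 and 2.48 in the wild type, not enriched, and 3.79 and 4.96 in the endogenous libraries. Here the mutant value and the lower wild type value were nearly equal.

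Of 23 genes known as QKI targets 12 had a locus, and 6 of their 24 loci (25%) were enriched in both endogenous libraries. Of those 6 loci 0 were enriched in both wild type libraries, and over the 179 such loci of all named genes the share was 23.5%. FGFR1OP2, the strongest, had 3.06 and 2.59 in the wild type, of which the first was enriched, and 6.76 and 5.64 in the endogenous libraries (chromosome 12, 27113354 to 27113474, plus strand). CD47, an integrin-associated membrane protein gene, had 2.37 and 2.18 in the wild type and 4.28 and 5.73 in the endogenous libraries. ERBB2IP, now named ERBIN, had 0.93 in mutant library 1, 3.58 and 1.44 in the wild type and 5.02 and 4.07 in the endogenous libraries. ADD3, the gamma-adducin gene, had 2.997 and 1.90 in the wild type and 4.496 and 4.89 in the endogenous libraries (chromosome 10, 111891962 to 111892106, plus strand). Over the 6 loci the folds ran from 0.83 to 3.58 and from 1.44 to 2.59 in the wild type, the second over the 4 that were listed, and from 3.41 to 6.76 and from 4.06 to 5.73 in the endogenous libraries.

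Of 63 cytoskeleton and adhesion genes 38 had a locus, and 12 of their 84 loci (14.3%) were enriched in both endogenous libraries. The wild type libraries listed 9 and 8 of the 12 and were enriched at 0 and 0, where the shares over the 179 such loci of all named genes were 35.2% and 27.4%. Their folds in the wild type libraries were 1.58 to 2.997 and 1.02 to 2.90, beside 3.38 to 4.75 and 3.13 to 4.96 in the endogenous libraries. The mutant libraries listed 1 and 2 of them, between 0.52 and 1.19. DST, the cytolinker dystonin, had 2.73 and 2.14 in the wild type and 4.72 and 4.73 in the endogenous libraries. TPM3, a tropomyosin gene, had 1.83 and 2.90 in the wild type and 4.33 and 4.96 in the endogenous libraries. UTRN, the dystrophin relative utrophin, had 2.87 and 2.90 in the wild type and 4.75 and 4.27 in the endogenous libraries. ADD3 belongs to this list as well as to that of the known targets.

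The surroundings of the 183 loci were then read from the same endogenous libraries. An enriched cluster of the proximal intron class lay within 100 bases of 66 loci in library 1 and 50 in library 2 (36.1% and 27.3%, against 2.76% and 1.95% of all 5397 loci). One of the coding exon class lay near 21 and 16 (11.5% and 8.74%, against 0.593% and 0.334%), and one of the 5′ splice site class near 15 and 12 (8.20% and 6.56%, against 0.463% and 0.315%). An enriched proximal intron cluster was found in 107 and 95 of the 172 genes (62.2% and 55.2%), against 21.5% and 20.9% of all genes with a 3′ splice site cluster. An enriched 5′ splice site cluster was found in 35 and 30 of the 172 genes (20.3% and 17.4%), against 4.401% and 3.88% of those genes. An enriched distal intron cluster was found in 113 and 104 (65.7% and 60.5%), against 40.4% and 39.8%. These shares come from the libraries that chose the loci and are given as a description.

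Single regions were tested between wild type and mutant with limma on the log2 folds. Clusters of the 4 tagged libraries were merged into 778377 regions, of which 2184 lay on a 3′ splice site cluster, and 5470 regions, 42 of them on a 3′ splice site cluster, had a cluster in all 4 libraries and could be tested. Of those 42, 0 passed an adjusted p of 0.05 in either direction with limma and Benjamini-Hochberg adjustment over all 5470 regions, while at an unadjusted p of 0.05 the wild type was higher at 4 and lower at 5. Over all regions 31 (0.567%) were higher and 1 (0.0183%) was lower in wild type. The median difference, wild type minus mutant, was −0.38 over the 42 and −0.26 over all, and regions listed in the mutant at all are a minority of the loci described above. The sign over 3′ splice site regions was not stable. The median was 0.13 over 84 regions without mutant library 1 and 0.25 over 91 without mutant library 2. These sets also hold regions with no cluster in the library left out. The effect of the library cannot be told apart from that of the added regions, since the same 42 were not refitted. Centring each library on its own median moved the median over all regions to 0.01 and that over the 42 to −0.11. The centred fit called 65 regions higher and 1 lower in wild type, and among the 42 it had 6 higher and 3 lower at an unadjusted p of 0.05.

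The largest difference among the 42 was that of lnc-USP6-2, at 4.39 with a standard error of 0.75 (wild type minus mutant, limma adjusted p = 0.0563). Leaving aside the setting that put missing clusters at 0, this region passed the threshold under 6 of 9 alternatives, with adjusted p-values from 3.02e-06 without wild type library 2 to 0.0420 with the replicate number as a block. The next were SIRT2, a sirtuin deacetylase gene, with log2 folds of 0.61 and 0.78 in the mutant and 3.11 and 2.08 in the wild type, and RAPGEFL1, with 0.50 and 1.00 in the mutant and 1.58 and 2.53 in the wild type (limma adjusted p = 0.240 and 0.381). The most negative was lnc-CPLX1-10, with 1.61 and 3.23 in the mutant and 0.83 and 0.12 in the wild type (limma adjusted p = 0.304). XRCC3, a recombination repair gene, had mutant log2 folds of 1.07 and 2.41 and wild type values of 0.13 and 0.10, and PPP4C, a phosphatase catalytic subunit gene, had mutant values of 1.68 and 2.19 and wild type values of 0.69 and 0.37 (limma adjusted p = 0.326 for each). In all 6 regions the mutant and wild type values did not overlap, and 0 of these differences passed the adjusted threshold. The regions were picked as the 3 largest and 3 most negative differences of these same values, which favours a lack of overlap.

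Besides lnc-USP6-2, 3 loci were enriched in mutant library 2, and their names were chosen after their values were seen. CFD, which encodes complement factor D, had 1.61 and 3.50 in the mutant, 1.34 and 2.53 in the wild type and 2.06 and 1.70 in the endogenous libraries (chromosome 19, 862948 to 863141, plus strand). SLC2A11, a sugar transporter gene, had 0.38 and 3.43 in the mutant, no wild type cluster and −1.01 in endogenous library 1. At the locus in lnc-CPLX1-10 the mutant values given above stood beside 0.26 in endogenous library 1. None of these 3 loci was enriched in a wild type or an endogenous library, and none was enriched in mutant library 1.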

How the data were processed

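eCLIP of QKI was measured in 12 libraries, and the 6 immunoprecipitation libraries were analysed here, with the 6 inputs present only as the denominator of the authors' folds. The submitters' processing notes name UMI-tools, cutadapt, STAR, SAMtools and build hg19, without versions or a peak caller, and read depth per library is unknown. For every cluster the authors deposited a log2 fold over size-matched input with its −log10 p, which stops at 400. The deposited browser score of the myc files was used only to check the thresholds. Reproducible peak lists pool both libraries of a group.

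Libraries were grouped by title. Member clusters and the 4 gene lists were chosen with earlier results of these data known. Overlap meant 1 shared base or more on one strand (bedtools 2.31.1). Each library's value at a locus was that of its overlapping cluster, of any region class, with the highest −log10 p, with enriched clusters preferred. Libraries were compared with exact permutation tests in Python 3.11.15, and regions with limma 3.58.1 (lmFit, eBayes) in R 4.3.3, at an adjusted p of 0.05. Binomial intervals are exact (Clopper-Pearson, 95%), and a count of 0 was read as at most 3.

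A simulated wild type against mutant comparison tested the limma fit (5470 regions, with 50 changed at each size): it recovered 0% of changes of 1 on the log2 scale, 0% of changes of 2, 20% of changes of 3 and 50% of changes of 4, with 2 false calls among 5270 unchanged regions.

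Genes were named by rule among loci with 1 gene name: the 12 with the highest mean endogenous fold, the 6 genes with the most loci enriched in both endogenous libraries, the 8 loci with the highest mean wild type fold, loci also enriched in the mutant, the 3 largest and 3 most negative limma differences, and up to 4 per list. A gene that this rule names is not reported here. ERBB2IP was updated to ERBIN through the RefSeq table's synonyms, and the lnc- names, absent from that table, are given as in the files. Same-numbered libraries of the groups did not deviate together (correlations from −0.08 to −0.03 over regions), so numbers were not taken as pairs. Coordinates are 1-based.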

Additional observations from a re-analysis of the deposited data

Results flagged for a closer look

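The region of XRCC3 had log2 folds of 1.07 and 2.41 in the mutant libraries (mean 1.74) and 0.13 and 0.10 in the wild type libraries (mean 0.12), all above 0, against −1.09 and −0.11 in the endogenous libraries, both below 0. Every tagged library thus lay on one side of the input level and every endogenous library on the other, and this difference was not tested. Only regions named in the text were searched for this pattern. It was not particular to XRCC3, since KCTD2, SFI1, MAN2C1, EEF1D and TUBGCP6 showed it as well among the regions tested with limma. The myc files list no clusters at or below 0, so a tagged value below 0 could not have been seen.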

How the results depend on the processing

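The difference in share enriched between 3′ splice site clusters and others kept its sign under 14 alternatives, from 1.11 points with the fold threshold at 4 to 3.73 with it at 2, and from 1.86 to 2.95 when 1 library was left out. With any base in the class it was 2.46. Its exact permutation p, which pools the unlike groups, was then 0.03125, under the threshold. Over the wild type and endogenous libraries alone, which was tried only after seeing the data, the difference was 3.56. Its exact permutation p was 0.125, the smallest possible with 4 libraries. The share of loci kept its sign throughout, from 0.87 to 30.6 points for wild type minus mutant (2.04 to 2.20 with 1 library left out) and from −9.26 to −1.82 for wild type minus endogenous (−3.31 to −2.31), at p-values that cannot go below 0.333. The difference in median fold, wild type minus mutant, was 0.49 to 1.00 with 1 library left out. It was 0 when loci without a listed cluster were set to 0, since all 4 medians are then 0. At the loci enriched in both endogenous libraries this last setting, also tried only after seeing the data, gave 2.45. The number of 3′ splice site regions past limma's threshold was 0 in the reported fit and with robust eBayes. It was 1, lnc-USP6-2 each time, with the replicate block, with the filter on −log10 p, with centred libraries and with the spread of all 6 libraries, and 0 to 1 with 1 library left out, where the lone sample is assumed to vary like the other group (1 without either wild type library, 0 without either mutant library). It was 463 of 952 when missing clusters were set to 0 (445 higher and 18 lower in wild type), where most values compared are the zeros put in. Over all regions, 31 higher and 1 lower in wild type in the reported fit, the counts were 35 and 1 with the replicate block, 65 and 1 with centred libraries, 108 and 19 of 377 with the filter on −log10 p, 79 and 0 with the spread of all 6 libraries, and 25170 and 6287 of 114299 with missing clusters set to 0. Without wild type library 1 they were 37 and 1, without wild type library 2 43 and 1, and without either mutant library 0 and 0. The differences in shares and median fold are the same with the replicate number as a block by construction, and with 2 pairs the smallest p is 0.5. Read depth is unknown, so what it limits could not be measured.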
